A study of Homo sapiens with 6 samples.

Results

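The BCL2 family decides whether the outer mitochondrial membrane is opened during apoptosis, and 10 of its genes were followed here in UM-SCC1 carcinoma cells that received mimics of miR-204-5p. The genes were taken by name from the deposited gene table. They are BCL2, BCL2L1, BCL2L2 and MCL1, which code for pro-survival proteins, BAX and BAK1, which code for pore-forming effectors, and BID, BBC3, PMAIP1 and BCL2L11, which code for BH3-only proteins. Each matched a single entry, so 10 of 14959 genes are described.

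UM-SCC1, a line derived from a human squamous carcinoma of the head and neck, was transfected with miR-204-5p mimics (3 libraries) or with control mimics (3 libraries), and RNA was taken 48 h later. A mimic is a synthetic double-stranded RNA that the cell loads as it would the mature miRNA, and both groups received the same transfection. The labels describe the libraries of a group as independent experiments, and all come from a single line. Values are FPKM, fragments per kilobase of transcript scaled to the fragments mapped in the library, so levels of different genes can be set side by side per length of transcript.

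Apoptosis through the mitochondria turns on the balance within this family. Pro-survival members hold the effectors in check, and BH3-only proteins, made or freed under stress, block the pro-survival members or activate the effectors directly. Active BAX and BAK1 form pores that let cytochrome c out, which leads to caspase activation. Squamous carcinomas commonly rely on BCL2L1 (BCL-XL) and MCL1 for survival. A miRNA guides the silencing complex to transcripts whose 3′UTR pairs with its seed, bases 2 to 8, and BCL2 family transcripts have often been studied as miRNA targets.

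The mature miRNA is shown because the search for matches rests on its seed, which stands in capitals. It is encoded on the minus strand at chr9:70810031-70810052 (RefSeq, GRCh38.p14).
hsa-miR-204-5p: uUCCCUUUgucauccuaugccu

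The longest 3′UTR of each member in GENCODE 29 (GRCh38) was searched on the sense strand for AAAGGGAA (8mer), AAAGGGA (7mer-m8), AAGGGAA (7mer-A1) and AAGGGA (6mer), a shorter match being counted only where no longer one covered it. All 4 pro-survival members held a match of 7 bases or more, and none of the effectors or BH3-only members did. Among 14660 genes with an annotated 3′UTR, 27.1% held such a match. By best match, 8.59% of those genes held an 8mer, 9.84% a 7mer-m8, 8.66% a 7mer-A1 and 12.3% a 6mer. These shares were not matched for 3′UTR length. The longest 3′UTRs had 1497 (BCL2L1) to 5279 bases (BCL2) in the pro-survival members. In the others they had 701 (BAX) to 1553 bases (PMAIP1), apart from BCL2L11 with 4480. The split by role did not extend to all family genes outside the members, searched in the same way. There the BH3-only HRK held a 7mer-m8, and the BH3-only BMF held a 7mer-A1, as did BCL2L13. The pro-survival BCL2A1 and BCL2L10, the BH3-only BAD and BIK and the effector-like BOK held no match. The best match of each member that held one is printed 5′ to 3′ with its neighbouring bases, the match in capitals.
BCL2 8mer: ttactgccAAAGGGAAatatcatt
MCL1 8mer: atcctccaAAAGGGAAagggagga
BCL2L1 7mer-m8: ctgaggtgAAAGGGAgctatcagg
BCL2L2 7mer-m8: cagagcccAAAGGGAcaaataggg
PMAIP1 6mer: cctactgtgAAGGGAgatgacctg

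The BCL2 match lay in exon 2 at chr18:63128409-63128416 (minus strand), 209 bases into a 3′UTR of 5279. The MCL1 8mer lay in exon 4 at chr1:150574833-150574840 (minus strand), 2535 bases into 2824. It shared 2 bases with a 7mer-m8 that followed, and a 7mer-A1 stood further upstream. For BCL2L1 the match lay in exon 3 of the transcript with the longest 3′UTR, at chr20:31665042-31665048 (minus strand). BCL2L2 held 3 matches within its last exon, the strongest at chr14:23311442-23311448 (plus strand), and all 3 lay outside the transcript for which its value is listed. PMAIP1, with a 6mer in exon 2 at chr18:59903097-59903102 (plus strand), was the only BH3-only member with any match. BAX, BAK1, BID, BBC3 and BCL2L11 held none in any annotated 3′UTR. A match of letters is a description and does not show binding.

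**Figure D1:**
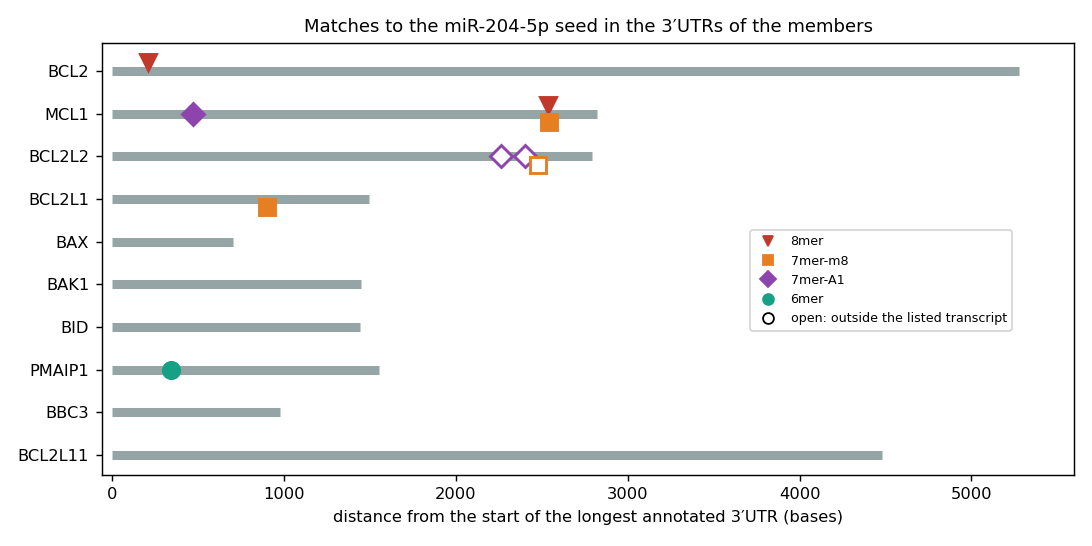
Each grey bar is the longest annotated 3′UTR of a member, with distance from its start in bases on the horizontal axis; symbols mark matches to the miR-204-5p seed, open where the match lies outside the listed transcript, and 8mers and 7mer-m8 matches are drawn above and below the bar so that neighbours stay visible. The matches of 7 bases or more sit in BCL2, MCL1, BCL2L2 and BCL2L1, and the bars of BAX, BAK1, BID, BBC3 and BCL2L11 are empty.

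Depth, inferred from the steps between low FPKM values, was 13.06 to 16 M fragments with miR-204-5p mimics and 13.97 to 16.41 M with control mimics, so the groups overlapped. The 7 markers of squamous epithelium were all present, with a summed level of 512 to 614 FPKM with miR-204-5p mimics and 696 to 726 with control mimics. Markers of leukocytes (4 of 4 in the table) summed to 13.7 to 15.4 and 14.6 to 15.7 FPKM, those of fibroblasts (4 of 5) to 9.81 to 11.6 and 8.58 to 9.41, and those of endothelium (3 of 3) to 0.59 to 0.767 and 0.443 to 0.502. PTPRC, CD3E, all 3 endothelial markers and 3 of the 4 fibroblast markers were below 1 FPKM in every library. The sums of the squamous, fibroblast and endothelial markers did not overlap between groups, and their part in the results on the family was not tested. Of the 7 squamous markers, 4 were called lower and 2 higher. In RNA from whole cultures, a change in the make-up of the cells and a change in RNA per cell cannot be told apart.

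At the level of the whole family, MCL1 had the highest level and BCL2 the lowest in both groups. With control mimics the order per length of transcript ran from MCL1 through BID, BAX, BCL2L1 and BAK1 to BCL2L2, PMAIP1, BBC3, BCL2L11 and BCL2. The ranges of BCL2L2 and PMAIP1 overlapped there, as did those of BBC3 and BCL2L11. With miR-204-5p mimics BCL2L1 stood above BAX, the reverse of the controls, with no overlap between these neighbours in either group. BCL2L2 dropped in that order to a place beside BCL2L11, with overlapping ranges, and only BCL2 was lower. The transcripts listed for BCL2L2 and BCL2L11 have 548 and 572 bases and are marked incomplete at the 3′ end. Whether the values are of those transcripts is not stated, so the places of these genes are uncertain.

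**Figure D2:**
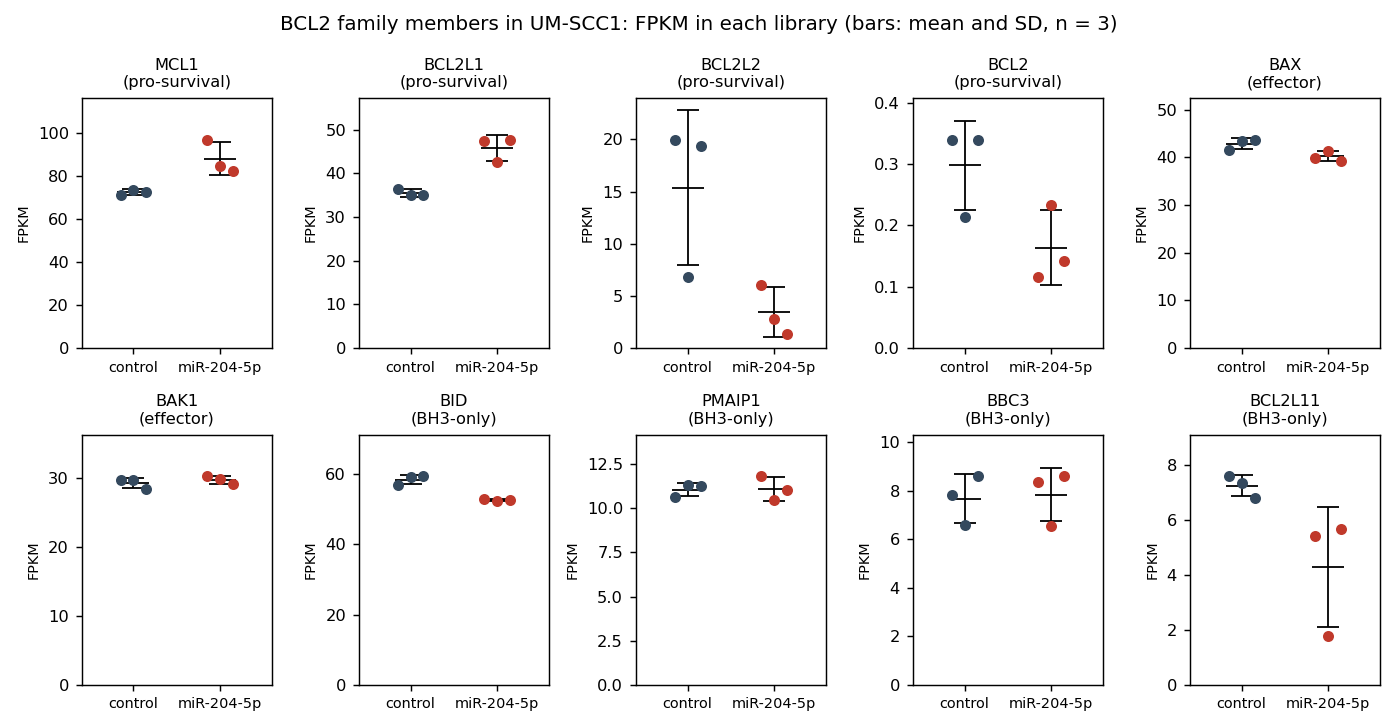
Level of each of the 10 members in FPKM, 1 panel per gene with its own linear axis from 0 and 1 point per library, control mimics at the left and miR-204-5p mimics at the right, with bars for the mean and SD (n = 3). The groups are separate for MCL1, BCL2L1, BCL2L2, BAX, BID and BCL2L11, and MCL1 reaches 96.8 FPKM where BCL2 stays at or below 0.340.

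Limma on log2(FPKM + 1), with Benjamini-Hochberg adjustment across the 14959 genes, called 4 of the 10 members at an adjusted p-value under 0.05. With miR-204-5p mimics BCL2L1 and MCL1 were higher, and BCL2L2 and BID were lower. Of the genes tested, 40.8% were called, 23.9% higher and 16.8% lower, so the members' share was close to the background. The excess of higher calls over all genes, 3578 against 2520 lower, depended on the scaling. It was 3080 against 2885 after scaling to equal sums, 3023 against 3025 to equal medians and 3043 against 3026 by quantiles. The groups did not overlap for 6 of 10 members, against 53.6% of all genes. The controls were the higher group for 4 of them, against 22.7% of all genes, and the lower group for 2, against 30.9%. The median log2 fold change of the members was −0.043, beside 0.03 for all genes. By role, 3 of 4 pro-survival genes, neither effector and 1 of 4 BH3-only genes were called.

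MCL1, a short-lived guardian that holds BAK1 and BIM, rose with miR-204-5p mimics. Its levels were 96.8, 84.7 and 82.4 FPKM with miR-204-5p mimics and 71.2, 73.6 and 72.7 FPKM with control mimics. The 3 controls were all below the lowest of the others and lay closer together. The means were 88.0 ± 7.72 and 72.5 ± 1.19 FPKM (SD, n = 3 each), a rise of 21.4% and a log2 difference of 0.27 (SE 0.0633, limma adjusted p = 0.0147). Leaving out any single library left a log2 fold change of 0.20 to 0.32.

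BCL2L1, the gene of BCL-XL, also rose. The libraries with miR-204-5p mimics read 47.4, 42.5 and 47.7 FPKM, and the controls 36.4, 35.1 and 34.9 FPKM. The groups stood well apart, with the lowest value under miR-204-5p mimics above the highest control. The means of 45.9 ± 2.93 and 35.5 ± 0.834 FPKM (SD, n = 3 each) differed by 29.2%, or 0.36 on the log2 scale (SE 0.0534, limma adjusted p = 0.00257), the smallest adjusted p-value among the members. The gene gives a long pro-survival and a short pro-apoptotic splice form, as MCL1 does. Each gene has a single value, and whether it is of the listed transcript or of the whole gene is not stated. The listed MCL1 transcript has 3626 bases, where the longest annotated one has 3932, and that of BCL2L1 has 2578 against 2610. Which splice form rose is therefore unknown for both genes.

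BCL2L2, which codes for the pro-survival protein BCL-W, fell the furthest of the 10. It was at 6.09, 2.80 and 1.39 FPKM with miR-204-5p mimics and at 20.0, 6.79 and 19.3 FPKM with control mimics. The groups did not overlap, but the second control library lay close to the first library with miR-204-5p mimics. The mean went from 15.4 ± 7.44 to 3.43 ± 2.41 FPKM (SD, n = 3 each), 4.48-fold lower, with a log2 fold change of −1.90 (SE 0.514, 95% interval −3.13 to −0.66, limma adjusted p = 0.0260). Without replicate 2 or 3 of the miR-204-5p mimics, or replicate 1 or 3 of the control mimics, the adjusted p was 0.0725 to 0.0804 and the call was lost. If the values are of the listed transcript, they stood for an inferred 11.9 to 174 fragments.

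The listed transcript covers chr14:23298790-23307922 (plus strand) in 4 exons and 548 bases, and GENCODE 29 marks it as incomplete at its 3′ end. Of its bases, 251 are shared with the full-length BCL2L2 transcript and equally with the readthrough gene BCL2L2-PABPN1, which joins BCL2L2 to its neighbour, a gene for a poly(A)-binding protein. Another 206 lie opposite exons of PPP1R3E on the other strand, and 91 belong to no other annotated transcript of the genes in the deposited table. Genes outside it were not checked. BCL2L2-PABPN1 was listed at 0 in 5 libraries and at 1.64 FPKM in replicate 2 of the miR-204-5p mimics. Thus the readthrough gene carried signal in a single library, one in which BCL2L2 itself was low.

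Added together, BCL2L2 and BCL2L2-PABPN1 came to 6.09, 4.45 and 1.39 FPKM with miR-204-5p mimics and 20.0, 6.79 and 19.3 FPKM with control mimics, still without overlap. The sum had a log2 fold change of −1.72 (SE 0.523, limma adjusted p = 0.0386). With each FPKM multiplied by transcript length before adding, it was −1.41 with an adjusted p of 0.0613, so the call on the locus depended on how the entries were joined. It was also lost, at 0.0762 to 0.112, without replicate 2 or 3 of the miR-204-5p mimics or replicate 1 or 3 of the control mimics. PPP1R3E, on the opposite strand, was lower at 1.86 ± 0.172 against 2.66 ± 0.151 FPKM (SD, n = 3 each; log2 fold change −0.36, SE 0.0703, limma adjusted p = 0.00779). Its longest annotated 3′UTR held an 8mer match to the seed. PABPN1 shared no base with the BCL2L2 transcript and differed by −0.07 on the log2 scale (limma adjusted p = 0.646). Whether the reads were counted by strand is not stated, and how far reads of these neighbours enter the BCL2L2 value was not tested.

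BCL2, the founding member, was the lowest of the 10 and rested on few fragments. Its levels were 0.116, 0.233 and 0.141 FPKM with miR-204-5p mimics and 0.340, 0.214 and 0.340 FPKM with control mimics, from an inferred 11.3 to 41.6 fragments. The second control library fell within the range of the libraries with miR-204-5p mimics, so the groups overlapped. On the log2(FPKM + 1) scale, which shrinks low genes, the fold change was −0.16 (95% interval −0.30 to −0.011, limma adjusted p = 0.0824), and with a pseudocount of 0.1 it was −0.60 (adjusted p = 0.0865). Neither passed the threshold. The call was made under quantile normalization (−0.19, adjusted p = 0.0435) and without replicate 2 of the control mimics (−0.20, adjusted p = 0.0454).

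**Figure D3:**
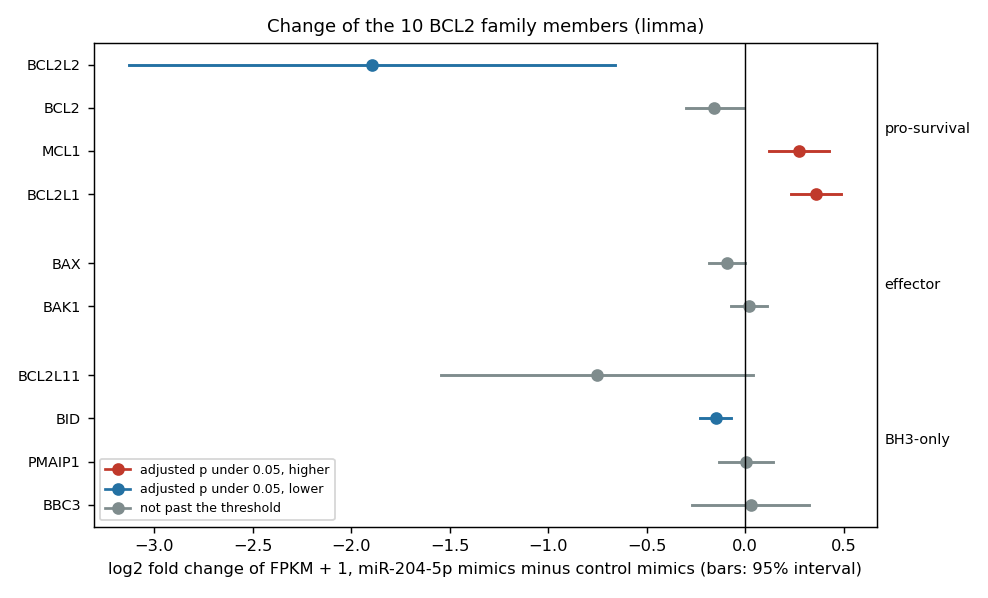
Log2 fold change of each member on log2(FPKM + 1), miR-204-5p mimics against control mimics, with its 95% confidence interval from limma and the members grouped by role; red and blue mark an adjusted p-value under 0.05, higher and lower, and grey the others. The interval of BCL2L2 runs from −3.13 to −0.66, and those of BCL2L1 and MCL1 lie above 0.

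The effectors BAX and BAK1, either of which can form the pore, were close in level and differed little between groups. BAX was at 39.9, 41.3 and 39.3 FPKM with miR-204-5p mimics and at 41.6, 43.3 and 43.7 FPKM with control mimics. All 3 controls were above all 3 libraries with miR-204-5p mimics, by a narrow margin. The log2 fold change of −0.09 (95% interval −0.18 to 0.0012, limma adjusted p = 0.105) did not pass, but it did after scaling to equal sums (−0.13, adjusted p = 0.0344), equal medians (−0.14, 0.0220) or equal quantiles (−0.11, 0.0418). BAK1 was at 30.3, 29.9 and 29.1 FPKM with miR-204-5p mimics and at 29.8, 29.8 and 28.5 FPKM with control mimics. Its libraries were interleaved, and the 95% interval of the log2 fold change ran from −0.071 to 0.11 (limma adjusted p = 0.706).

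Among the BH3-only members, BID was the single one called. BID is cut by caspase-8 and so ties death receptors to the mitochondria. It was at 52.9, 52.3 and 52.5 FPKM with miR-204-5p mimics and at 56.9, 59.1 and 59.4 FPKM with control mimics. The libraries with miR-204-5p mimics lay within less than 1 FPKM of each other and below every control. The mean of 52.6 ± 0.266 against 58.5 ± 1.35 FPKM (SD, n = 3 each) fell by 10.1%, a log2 fold change of −0.15 (SE 0.0329, limma adjusted p = 0.0119).

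BCL2L11 codes for BIM, an activator of the effectors that also binds all pro-survival members. Its levels were 5.41, 1.76 and 5.66 FPKM with miR-204-5p mimics and 7.59, 7.36 and 6.82 FPKM with control mimics. The groups did not overlap, and replicate 2 of the miR-204-5p mimics stood far below the other two of its group. The means were 4.28 ± 2.18 and 7.26 ± 0.395 FPKM (SD, n = 3 each), with a log2 fold change of −0.75 (95% interval −1.54 to 0.042, limma adjusted p = 0.117). Without that library the log2 fold change was −0.34 and the adjusted p 0.0189, a smaller difference that passed. The listed transcript has 572 bases at chr2:111119378-111124112 (plus strand) and is marked incomplete at its 3′ end. It is 1 of 25 annotated and shares 137 bases with the transcript that has the longest 3′UTR. If the values are of that listed transcript, they stood for an inferred 16.1 to 64.1 fragments.

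BBC3 (PUMA) and PMAIP1 (NOXA), both known to be induced by cell stress, were not called. BBC3 read 8.38, 6.57 and 8.60 FPKM with miR-204-5p mimics and 7.85, 6.59 and 8.60 FPKM with control mimics. In both groups the second library was the lowest, and the ranges nearly coincided. Its log2 fold change had a 95% interval of −0.27 to 0.32 (limma adjusted p = 0.884). PMAIP1, whose product binds MCL1 above all, read 11.8, 10.5 and 11 FPKM with miR-204-5p mimics and 10.6, 11.3 and 11.3 FPKM with control mimics. These values overlapped as well, and the interval of −0.13 to 0.14 was tighter (limma adjusted p = 0.96).

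Set against the seed matches, the members did not move in one direction. Of the 4 with a match of 7 bases or more, BCL2L1 and MCL1 rose, BCL2L2 fell and BCL2 was not called. Of the 6 without one, BID fell and 5 were not called. Over all genes 23.9% were called higher and 16.8% lower. These shares were not split by seed match, so the counts of the members by match are a description only. The largest fall was that of BCL2L2, whose listed transcript ends before the matches of its gene, and whether its value is of that transcript or of the whole gene is not stated.

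Other genes of the family were read from a list of 13, of which 12 are in the table. BCL2A1, BCL2L10 and BCL2L14 averaged below 1 FPKM. Of the 12, 5 were called, 2 higher and 3 lower, with a median log2 fold change of −0.06 beside 0.03 for all genes. That count is near the background of 40.8% called, 23.9% higher and 16.8% lower without scaling.

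BOK, an effector-like member that needs no BH3-only activator, was higher. It was at 20.9, 18.5 and 20.2 FPKM with miR-204-5p mimics and at 13.1, 13.8 and 12.6 FPKM with control mimics, 1.51-fold apart (log2 fold change 0.56, SE 0.0596, limma adjusted p = 0.000717). HRK, a BH3-only gene known from neurons, was higher too, from 0.694, 0.896 and 1.02 FPKM with control mimics to 2.14, 2.70 and 2.93 FPKM with miR-204-5p mimics. Its log2 fold change was 0.94 (SE 0.108, limma adjusted p = 0.000926). Neither gene had overlapping groups. HRK held a 7mer-m8 and BOK no match.

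The BH3-only genes BAD and BIK were lower, as was BNIP3, a mitochondrial receptor of mitophagy that hypoxia induces. BIK was at 4.43, 3.64 and 3.25 FPKM with miR-204-5p mimics and at 5.67, 5.39 and 6.12 FPKM with control mimics (log2 fold change −0.50, SE 0.101, limma adjusted p = 0.00869). BNIP3 was at 17.8, 14.9 and 13.7 against 24, 23.6 and 25.3 FPKM (−0.63, SE 0.0911, limma adjusted p = 0.00233). BAD, which growth factor signalling keeps inactive, was at 9.47, 10.6 and 15.6 against 18.6, 25.2 and 19.2 FPKM (−0.79, SE 0.193, limma adjusted p = 0.0180). None of these genes had overlapping groups, and BAD varied most within its groups. The call on BAD was lost without replicate 1 or 2 of the miR-204-5p mimics or replicate 2 of the control mimics, with adjusted p from 0.0539 to 0.0635.

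The remaining family genes above 1 FPKM were not called. BMF, a BH3-only gene, averaged 4.27 ± 0.256 FPKM with miR-204-5p mimics and 5.03 ± 0.735 FPKM with control mimics (SD, n = 3 each; log2 fold change −0.19, limma adjusted p = 0.175). BCL2L12 averaged 19.0 ± 0.567 and 19.5 ± 1.85 FPKM (−0.04, adjusted p = 0.710). For BCL2L13, a mitophagy receptor, the 3 values of 18.9 to 19.4 FPKM with miR-204-5p mimics were all below the 20.0 to 20.5 FPKM of the controls, and the difference of −0.07 did not pass (adjusted p = 0.142) except after scaling to equal medians. BNIP3L, the relative of BNIP3, was at 21.4, 9.29 and 20.5 against 19.5, 18.1 and 20.1 FPKM (−0.25, adjusted p = 0.535). Replicate 2 of the miR-204-5p mimics was thus the low library for BNIP3L, as for BCL2L11.

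**Figure D4:**
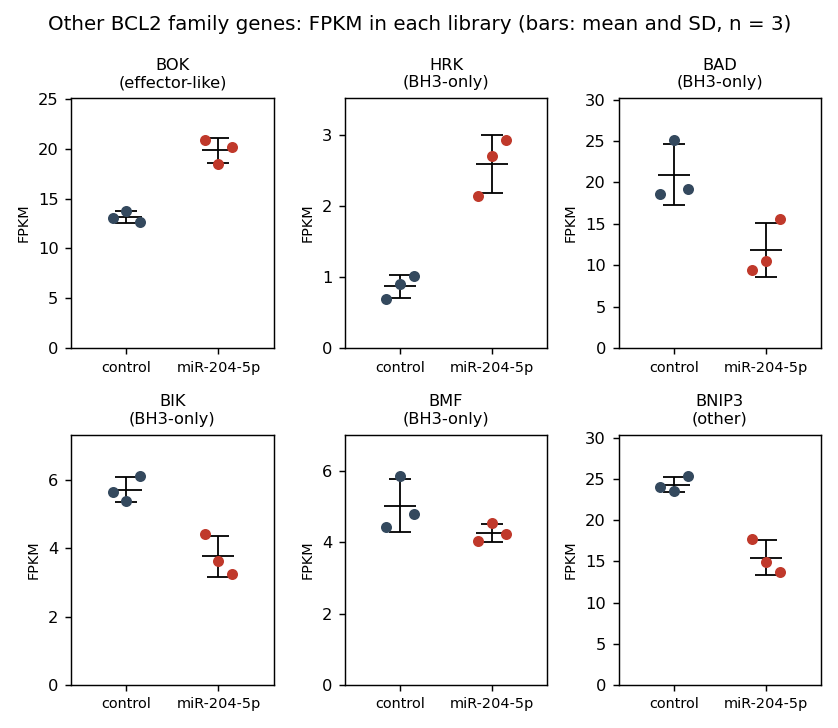
Level in FPKM of BOK, HRK, BAD, BIK, BMF and BNIP3, 1 panel per gene with its own linear axis from 0 and 1 point per library, with bars for the mean and SD (n = 3 per group). BOK and HRK lie higher with miR-204-5p mimics, BAD, BIK and BNIP3 lie lower, and the groups of BMF overlap.

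The genes that act before and after the family in the mitochondrial pathway were read from a list of 32, all in the table. Of these, 13 were called, 7 higher and 6 lower, again near the 40.8% of all genes, with a median log2 fold change of 0.03.

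Downstream of the pore, CYCS, which codes for cytochrome c, rose from 29.5 ± 1.49 to 52.5 ± 1.98 FPKM (SD, n = 3 each), 1.78-fold (log2 fold change 0.81, SE 0.05, limma adjusted p = 0.00011). VDAC1, an outer membrane channel, rose 1.58-fold, from 95.1 to 109 FPKM in the controls to 154 to 161 FPKM (limma adjusted p = 0.000351). APAF1, the scaffold that cytochrome c assembles into the apoptosome, was lower at 4.31 ± 0.234 against 5.60 ± 0.169 FPKM (log2 fold change −0.32, limma adjusted p = 0.00680). ENDOG, a mitochondrial nuclease, was lower (−0.21, limma adjusted p = 0.0210), and AIFM1, the apoptosis-inducing factor, was higher (0.18, limma adjusted p = 0.0176). AIFM1 also lost its call after scaling to equal medians (adjusted p = 0.0743). Both of these smaller calls were lost without replicate 2 or 3 of the control mimics, at adjusted p of 0.0553 to 0.0687.

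BIRC3, the ubiquitin ligase cIAP2, showed the largest fold change of the pathway list. It was at 16, 14.8 and 13.7 FPKM with miR-204-5p mimics and at 5.41, 5.70 and 5.86 FPKM with control mimics, 2.62-fold apart (log2 fold change 1.25, SE 0.0666, limma adjusted p = 7.42e-05). BIRC6, a giant ubiquitin ligase of the same group, was lower (−0.33, limma adjusted p = 0.0108).

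Of the genes that set the stability of MCL1 protein, the ligase gene TRIM17 was higher, at 2.41 ± 0.0437 against 1.83 ± 0.103 FPKM (a log2 difference of 0.27, limma adjusted p = 0.0103), whereas HUWE1, FBXW7, USP9X and BTRC were not called. Among transcription factors that drive BH3-only genes, TP73 was lower at 1.76 ± 0.441 against 4 ± 0.910 FPKM (−0.85, limma adjusted p = 0.00793). DDIT3, the stress factor CHOP, was lower (−0.44, limma adjusted p = 0.0453), a call that was lost without any one of 5 libraries, all but replicate 3 of the control mimics (adjusted p 0.0530 to 0.12). FOXO3, a known activator of BCL2L11, was higher (0.22, limma adjusted p = 0.0309), and lost the call without replicate 2 or 3 of either group (adjusted p 0.0771 to 0.0895) and after scaling to equal sums or medians (0.0861 and 0.0679).

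**Figure D5:**
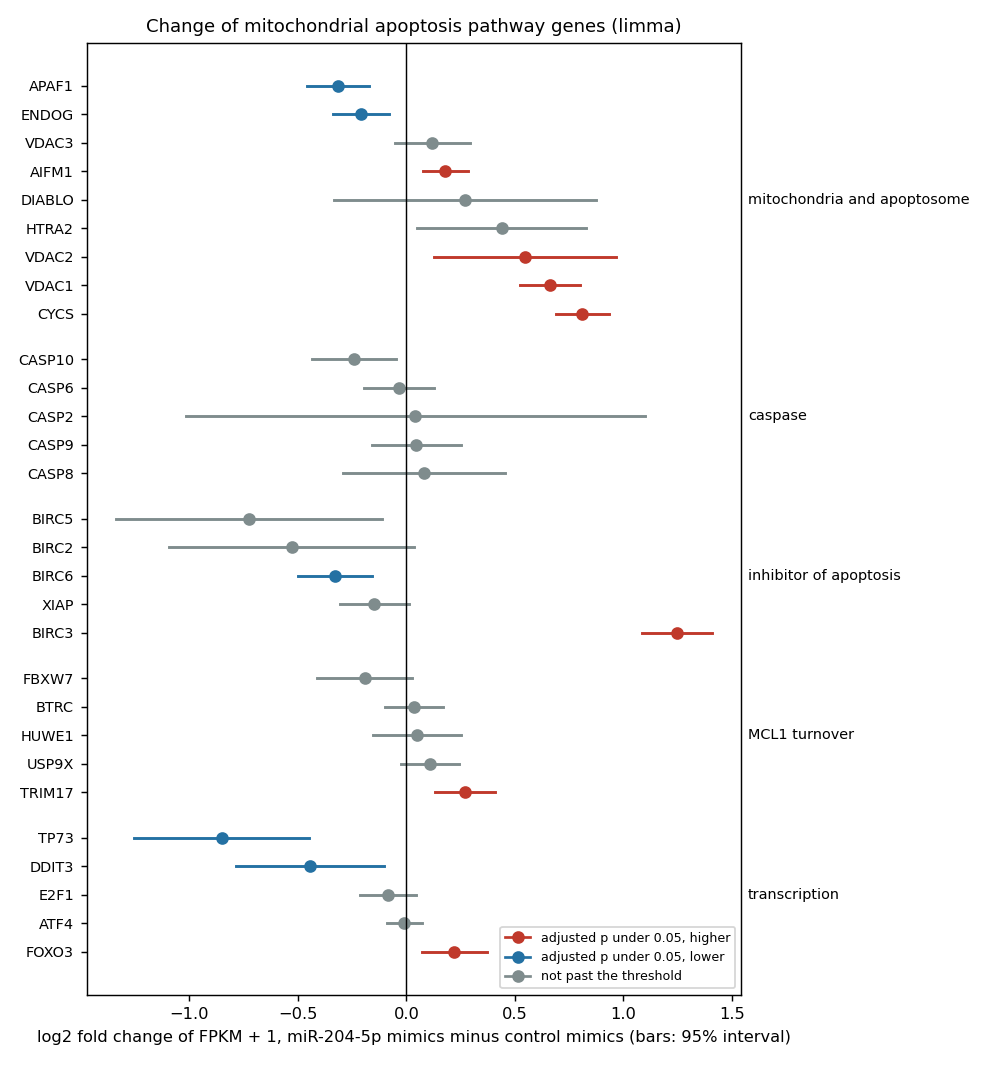
Log2 fold change of 29 of the 32 pathway genes, miR-204-5p mimics against control mimics, with 95% confidence intervals from limma and the genes grouped by role; red and blue mark an adjusted p-value under 0.05, higher and lower, and grey the others. BIRC3 lies farthest to the right at 1.25 and TP73 farthest to the left at −0.85.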

How the data were processed

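RNA from UM-SCC1 cells was sequenced by the authors (TruSeq RNA kit, HiSeq X), and the deposited table gives FPKM for 14959 genes, 1 listed transcript each. The submitters' processing notes name HISAT2, StringTie and hg38, without versions. Whether an FPKM belongs to the listed transcript or to the whole gene is not stated. The table also holds the authors' own fold changes and p-values, which were not used. Because FPKM values are not counts, the count-based test of the methods was replaced by limma 3.58.1 in R 4.3.3 on log2(FPKM + 1), using lmFit and a trended eBayes, without filter or rescaling, two-sided, with Benjamini-Hochberg adjustment over all genes at 0.05. On simulated data of 14959 genes, 181 of 200 genes changed by a log2 fold change of 1 were called, with 6 unchanged ones. The changed genes all averaged at least 1 FPKM and were a far smaller share than the 40.8% called in the data. Smaller changes, such as that of BID (−0.15), were not simulated, so their recovery is unknown.

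Depth was inferred from FPKM steps. The step was searched only within limits set beforehand, so the inferred depths and fragment numbers are bound to that range and are rough. Only 28.37% to 34.17% of the low values came out as whole fragments (within 0.05), so counts were not recovered. The listed transcripts were matched to GENCODE 29 (14946 found, 14844 with the same coordinates). Python 3.11.15, pandas 2.3.3, numpy 2.4.6 and matplotlib 3.10.9 were used.

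The members and lists were chosen with earlier results of these data known. All members are named in every library. Genes of the lists are named if called, without overlap and at a mean of 1 FPKM or more, plus family genes of that level. HUWE1, FBXW7, USP9X and BTRC fall outside this rule and were named after their values were seen. Some genes of the pathway list enter its total count and are not reported here. Alternatives were a pseudocount of 0.1, a minimum mean of 1 FPKM, a replicate block, leaving out each library, 3 scalings, no variance trend, a length-weighted locus sum, and all annotated 3′UTRs.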

Additional observations from a re-analysis of the deposited data

How the results depend on the processing

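BCL2L1 and MCL1 were called higher under all 13 alternatives run. The count of members called lower, 2, was 4 under quantile normalization, which added BAX and BCL2, and 1 with the replicate number as a block, where BID missed the threshold (adjusted p = 0.0561). Leaving out single libraries gave 1 to 3. The summed BCL2L2 locus had a log2 fold change of −1.72 with an adjusted p of 0.0539 under the block and of −1.41 (0.0613) when weighted by length, and ran from −2.19 to −1.26 without single libraries.

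The replicate number was not shown to pair the libraries. The deviations of same-numbered libraries correlated at −0.108 to −0.021. Whether such libraries were handled together cannot be told from these correlations, so the calls lost under the block remain a limit. Over all genes the block made 5096 calls against 6098. The block changed no call on a member other than BID. In the pathway list the block ended the calls on ENDOG (adjusted p = 0.0595), FOXO3 (0.0888) and VDAC2 (0.0912).

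Directions turned only for members that were not called. BAK1 was −0.031 after scaling to equal medians, −0.022 to equal sums and −0.0028 by quantiles, and −0.0011 to 0.036 without single libraries. BBC3 was −0.020, −0.012 and −0.0019, with −0.066 to 0.136. PMAIP1 was −0.044, −0.036 and −0.012, with −0.037 to 0.043. All 3 scalings lowered the log2 fold change of every member. Before scaling, the FPKM of a library summed to 283500 to 291900 with miR-204-5p mimics and to 276800 to 280100 with control mimics. The cause of the turns was not tested. BCL2 has no value under the mean of at least 1 FPKM. The calls among other family genes numbered 4 to 6 and in the pathway 9 to 14 over all alternatives, against 5 and 13. The 4 members with a match of 7 bases or more were the count under both annotations. Depth limits BCL2, BCL2L2 and BCL2L11 most, whose lowest library held an inferred 11.3, 11.9 and 16.1 fragments if the values are of the listed transcripts.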
